A study of Mus musculus with 9 samples.

Results

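The genes described here are 8 that carry the light signal in cone photoreceptors below the opsins: the cone transducin subunits Gnat2, Gnb3 and Gngt2, the cone phosphodiesterase subunits Pde6c and Pde6h, the cone channel subunits Cnga3 and Cngb3, and cone arrestin Arr3. They were chosen by name as rows of the deposited tables, though with earlier results of these data known. All 8 were found among the 53280 genes of the count table. Poly-A RNA of whole neural retina was sequenced from mouse pups on postnatal day 4 (P4), 5 pools from Opn4 knockout pups and 4 pools from wildtype littermates, each of 4 retinas from 2 animals of one genotype. Opn4 encodes melanopsin, the photopigment of the intrinsically photosensitive ganglion cells, and the title of the series asks how these cells set the number of rods.

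Both groups came from matings between Opn4 heterozygotes, were kept under about 300 lux and were killed at ZT6 to ZT7 (6 to 7 h after lights on). The genotypes are labelled Opn4KO and Opn4WT, both under standard lighting, and no drug or transgene is named for either. No source used here gives the sex of the pups, the strain, the part of Opn4 removed or the litters that went into a pool. Where pools of a genotype shared litters, p-values measure only the spread between these pools. The knockout pools held 1.07 to 1.82 CPM (counts scaled to the size of the library) of Opn4 and the wildtype pools 11.4 to 12.03 CPM, so every library matched its label.

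Cones capture light with an opsin that activates transducin, a G protein of an alpha, a beta and a gamma subunit. Transducin releases phosphodiesterase from its inhibitory subunit, cyclic GMP falls, the cyclic nucleotide-gated channels close, and arrestin later quenches the opsin. Rods run the same cascade with a separate set of genes, so that nearly every cone gene has a rod counterpart. In the mouse, cones are born before birth and rods largely around and after it, so at P4 all cones are present but immature. Loss of GNAT2, PDE6C, PDE6H, CNGA3 or CNGB3 causes achromatopsia, the absence of cone vision, in humans.

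Promoter sequences are shown for Gnat2, Pde6h and Arr3, because these members stood highest in the same pair of pools (values below) and have a record. Gnb3, the other member with that pattern, has none. RefSeq promoter records on GRCm38.p6 were matched for 4 of the 8 members, each record running from 250 bases before to 50 bases after a transcript start. Capitals mark TAATC on either strand, the core letters bound by the photoreceptor factors CRX and OTX2.
Gnat2 (chr3:108092816-108093115, plus strand): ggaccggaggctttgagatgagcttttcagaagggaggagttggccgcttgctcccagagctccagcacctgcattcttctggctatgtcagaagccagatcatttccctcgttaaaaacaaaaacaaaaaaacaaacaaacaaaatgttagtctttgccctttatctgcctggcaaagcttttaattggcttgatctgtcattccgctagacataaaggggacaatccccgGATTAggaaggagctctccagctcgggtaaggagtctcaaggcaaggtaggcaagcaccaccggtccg
Pde6h (chr6:136954273-136954572, plus strand): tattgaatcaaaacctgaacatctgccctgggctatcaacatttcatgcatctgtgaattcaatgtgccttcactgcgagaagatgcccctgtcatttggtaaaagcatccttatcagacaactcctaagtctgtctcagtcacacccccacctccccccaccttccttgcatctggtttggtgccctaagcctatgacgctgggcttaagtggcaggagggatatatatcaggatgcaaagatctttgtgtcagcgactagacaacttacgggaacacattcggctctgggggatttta
Arr3 (chrX:100605247-100605546, plus strand): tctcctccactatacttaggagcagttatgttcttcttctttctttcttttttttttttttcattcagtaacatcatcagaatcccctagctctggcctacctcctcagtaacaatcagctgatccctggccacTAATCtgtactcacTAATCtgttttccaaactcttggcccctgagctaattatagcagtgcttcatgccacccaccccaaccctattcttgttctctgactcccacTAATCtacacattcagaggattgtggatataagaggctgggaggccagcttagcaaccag
The Gnat2 window held 1 match, beginning 18 bases before the start on the minus strand, and it belonged to the longer form TAATCC. The Arr3 window held 3 matches on the plus strand, beginning 116, 102 and 10 bases before the start, none of them TAATCC. The Pde6h window and both Cnga3 windows held none. Among all 32851 promoter windows of this length, 22% held TAATC and 7.06% held TAATCC. These matches describe letters in a window and no binding was measured.

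In GENCODE M21 (GRCm38) no member lies on chromosome 14, which carries Opn4. Gnat2 is at chr3:108092789-108101432, Gngt2 at chr11:95837216-95845734, Pde6c at chr19:38132781-38183958, Pde6h at chr6:136923832-136968865, Cnga3 at chr1:37214434-37263384, Cngb3 at chr4:19280850-19510623 and Arr3 at chrX:100605497-100618493, all on the plus strand. Gnb3 is at chr6:124834240-124840275 on the minus strand. Exons of Gngt2 shared 234 of 1877 bases (12.5%) with Abi3 on the opposite strand, and those of Pde6h shared 136 of 7846 bases (1.73%) with Arhgdib, also opposite. No source used here says whether the libraries kept strand, so reads from the shared bases could not be told apart. None of the 8 had a near-identical copy in another gene (a single match of 95% identity or more along 50% or more of its transcript). The longest match at that identity covered 39.4% of a Gnat2 transcript, in Gm49651. Its part in the Gnat2 level was not tested.

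The count table totalled 65.5 to 86.1 M counts per pool. Knockout pools 1 and 2 stood apart in holding lens RNA: Cryaa, a lens crystallin, measured 4.65 and 3.28 CPM there against 0.0812 to 0.737 CPM elsewhere, and the summed level of 6 lens markers was 13.8 and 10.8 CPM against 5.25 to 5.87 CPM. Wildtype pool 3 held 14.1 CPM of Xist against 710.4 to 1066 CPM in the others, and the most blood RNA, with a red blood cell list at 335 CPM against 73.7 to 205 CPM. All 8 neural retina markers were present. The summed level of 7 pigment epithelium markers was 29.2 to 63.0 CPM in knockout and 45.1 to 59.2 CPM in wildtype. Rpe65, the lowest of these 7, was at or below 0.213 CPM on average in both genotypes. The cycling progenitor list was called lower in knockout for 10 of 10 genes (summed 872 to 1038 CPM against 1408 to 1579 CPM). The red blood cell list was called lower for 5 of 5, where 2.25% of all genes tested were. Of these 5, 1 was called in a robust fit and 2 without knockout pools 1 and 2. In those fits 498 of 21150 and 352 of 21374 genes were called lower. Results that rest on knockout pools 1 and 2 are given with and without them. Whole retina was measured, so fewer cones and less RNA per cone cannot be told apart.

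At P4 the cone cascade was expressed unevenly, with the gamma and beta subunits of its transducin above the other 6 members. Levels are compared between genes only as TPM (a transcript level scaled to the library and corrected for length) summed per gene. Gngt2, the cone transducin gamma subunit, measured 1063 TPM as a mean of the 9 pools (985 to 1284) and Gnb3, the beta subunit, 332 TPM (273 to 398). Gnat2, the alpha subunit, came next at 68.0 TPM (57.2 to 80.6), ahead of Pde6h, the inhibitory phosphodiesterase subunit, at 55.3 TPM (42.8 to 65.6). Arr3 measured 18.1 TPM (11.03 to 32.7) and the channel subunit Cngb3 14.1 TPM (11.1 to 16.2). The catalytic subunit Pde6c, at 11.2 TPM (7.94 to 14.6), and the channel subunit Cnga3, at 6.41 TPM (5.78 to 7.08), were the lowest.

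Gngt2 was 3.21-fold above Gnb3, Gnb3 4.88-fold above Gnat2, Pde6h 3.06-fold above Arr3 and Pde6c 1.75-fold above Cnga3, each with ranges that did not meet. The other neighbours were close: Gnat2 lay 1.23-fold above Pde6h, Arr3 1.28-fold above Cngb3 and Cngb3 1.26-fold above Pde6c, with overlapping ranges. Within single pools Gnat2 exceeded Pde6h in 9 of 9, Cngb3 exceeded Pde6c in 9 of 9 and Arr3 exceeded Cngb3 in 7 of 9. From the highest to the lowest member the levels spanned 166-fold. Gnb3 is also a subunit in ON bipolar cells and Gngt2 is also expressed in blood and immune cells, and the share of such cells in these levels was not tested.

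**Figure D1:**
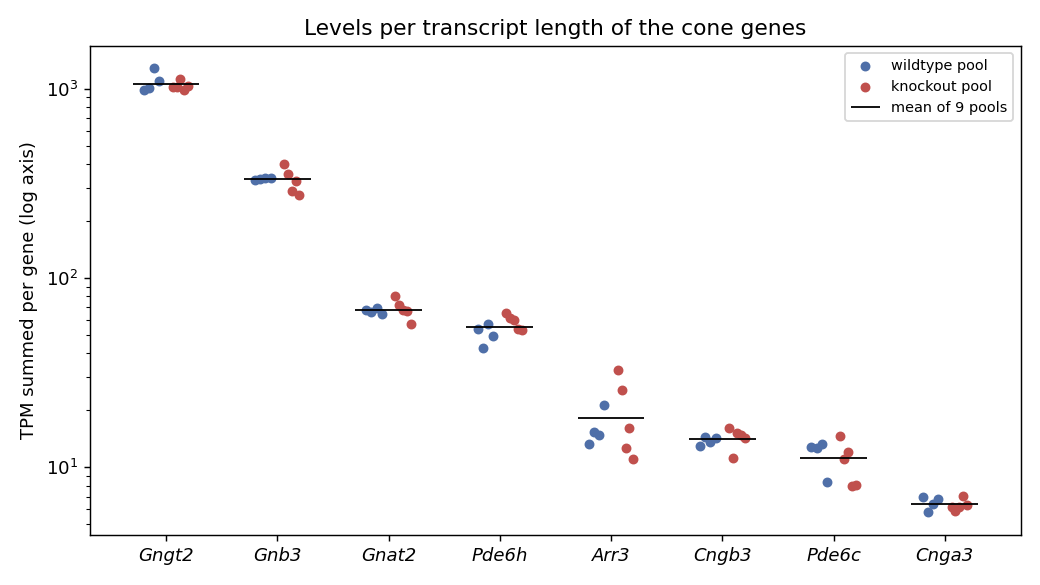
TPM summed per gene (log axis) for each of the 8 cone genes, ordered by mean level, with 1 point per pool and a line at the mean of the 9 pools. Gngt2 at 985 to 1284 TPM and Gnb3 at 273 to 398 TPM stand clear of the rest, and both genotypes overlap at every gene.

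The TPM table lists these genes as 35 transcript rows without transcript names. Cngb3 had a single row, and a single row held 85.8% of the level of Cnga3 and 74.7% of that of Pde6h. The leading row held 63.6% of Gnb3, 51.9% of Gngt2, 50.9% of Pde6c, 47.8% of Arr3 and 40.9% of Gnat2. Of 29 rows high enough to test, 0 passed limma on log2(TPM + 0.5), where 0.176% of all transcript rows did (lowest adjusted p = 0.375). At an unadjusted p under 0.05 stood 2 rows, a minor row of Pde6h (6.24% of the gene, higher in knockout) and one of Gngt2 (0.16%, lower), against 9.21% of all rows.

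No member of the cone cascade was called different between the genotypes: 0 of 8 passed edgeR's quasi-likelihood test (Benjamini-Hochberg adjusted p under 0.05), where 3.59% of the 21150 genes tested did (1.34% higher and 2.25% lower in knockout). None had an unadjusted p under 0.05 either, against 16.5% of all genes, nor ranges that stood apart, against 8.29%. The median log2 fold change, knockout minus wildtype, was 0.02 over the members and 0.00 over all genes tested, with 4 members positive and 4 negative. All 8 passed the filter on low counts. DESeq2 also called 0 of 8, where 8.7% of its genes were called, and so did limma on gene-summed TPM, where 2.16% were. The authors' deposited table called 0 of 8, with 1.46% of its genes at a q-value under 0.05.

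Gnat2, which couples the opsin to phosphodiesterase, measured 55.1, 48.8, 43.7, 43.2 and 38.4 CPM in knockout pools 1 to 5 and 45.2, 45.4, 42.9 and 43.4 CPM in wildtype pools 1 to 4. Knockout pools 1 and 2 lay above all wildtype pools and knockout pool 5 below them, so the knockout values enclosed the wildtype ones. The fitted difference on the log2 scale was 0.05 (SE 0.09; 95% confidence interval −0.13 to 0.24; edgeR adjusted p = 0.834), an interval from 0.912-fold to 1.18-fold.

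Gnb3, the beta subunit, was also highest in knockout pools 1 and 2 and lowest in knockout pool 5. It measured 345, 307, 249, 279 and 234 CPM in knockout and 284, 289.6, 289 and 297 CPM in wildtype. The wildtype pools were tight (SD 5.15 CPM, n = 4) and the knockout pools spread around them (SD 44.9 CPM, n = 5), with a log2 fold change of −0.04 (SE 0.09; edgeR adjusted p = 0.903). ON bipolar markers, whose cells share Gnb3, summed to 812 to 863 CPM in knockout and 738 to 775 CPM in wildtype. Of these markers 3 of 9 were called higher in knockout, where 1.34% of all genes tested were. Without knockout pools 1 and 2, 0 of 9 were called higher, against 0.627% of all genes. The part of these markers in the Gnb3 level was not tested.

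Gngt2, the gamma subunit, was even across the knockout pools, at 189.8, 184, 198, 178 and 187 CPM, and measured 179.7, 184, 225 and 201 CPM in wildtype. Wildtype pool 3 was the highest. Its log2 fold change of −0.08 (SE 0.06; edgeR adjusted p = 0.609) had a 95% interval of −0.21 to 0.06, the narrowest among the members. Summed microglia and monocyte markers also peaked in wildtype pool 3, at 142 CPM, with 103 to 118 CPM elsewhere and 0 of 10 called. Not every marker did so: P2ry12 was lowest there, at 3.52 CPM. The part of these markers in the Gngt2 level was not tested. None of those markers was at 0 in any pool.

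Pde6c, the catalytic subunit of the enzyme that breaks down cyclic GMP in cones, was low in knockout pools 4 and 5 and in wildtype pool 4. It measured 21.2, 16.3, 17.96, 11.6 and 11.1 CPM in knockout and 19.2, 17.7, 19.0 and 12.2 CPM in wildtype. Its log2 fold change of −0.12 (SE 0.19; edgeR adjusted p = 0.816) was not called, and the 95% interval of −0.53 to 0.28 leaves changes from 0.694-fold to 1.22-fold undetected at this spread.

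Pde6h, the cone inhibitory gamma subunit, measured 47.7, 50.5, 40.0, 40.5 and 37.9 CPM in knockout and 40.5, 37.3, 42.9 and 37.8 CPM in wildtype. Knockout pools 1 and 2 were the highest and the other knockout pools lay within the wildtype range. It had the lowest unadjusted p of the members (0.154), with a log2 fold change of 0.13 (SE 0.08; edgeR adjusted p = 0.506). In gene-summed TPM it measured 58.9 ± 5.1 in knockout and 51.0 ± 6.4 in wildtype (SD, n = 5 and 4; log2 difference 0.21; limma adjusted p = 0.302).

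For both channel subunits the genotype means lay within the spread of the pools. Cnga3, which can form a channel alone, measured 11.4, 11.4, 9.76, 11.1 and 10.5 CPM in knockout and 11.9, 10.3, 10.1 and 11.4 CPM in wildtype (log2 fold change −0.02, SE 0.08; edgeR adjusted p = 0.956). Cngb3, its modulatory partner, measured 44.7, 30.02, 40.7, 40.5 and 39.0 CPM in knockout and 35.6, 39.7, 35.7 and 38.8 CPM in wildtype (log2 fold change 0.06, SE 0.09; edgeR adjusted p = 0.835). For Cngb3, knockout pool 1 was the highest and knockout pool 2 the lowest of all pools, unlike the other members.

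Arr3, cone arrestin, was the most variable member. It measured 16.8, 13.2, 5.47, 8.05 and 6.16 CPM in knockout and 7.00, 7.37, 7.18 and 10.1 CPM in wildtype. Knockout pools 1 and 2 were the highest and knockout pools 3 and 5 the lowest of all 9. The log2 fold change of 0.33 (SE 0.29; edgeR adjusted p = 0.632) had a 95% interval of −0.29 to 0.95, which reaches up to 1.93-fold. Its SD within genotype was 0.55 on the log2 CPM scale, and of 3295 tested genes within 2-fold of its level 98.3% had a smaller one. The corresponding share was 98% for Pde6c, 96.2% for Gnb3 and 22.3% for Cnga3, which was the least variable member. Arr3 is X-linked, and wildtype pool 3, which held little Xist, measured within the range of the other wildtype pools.

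**Figure D2:**
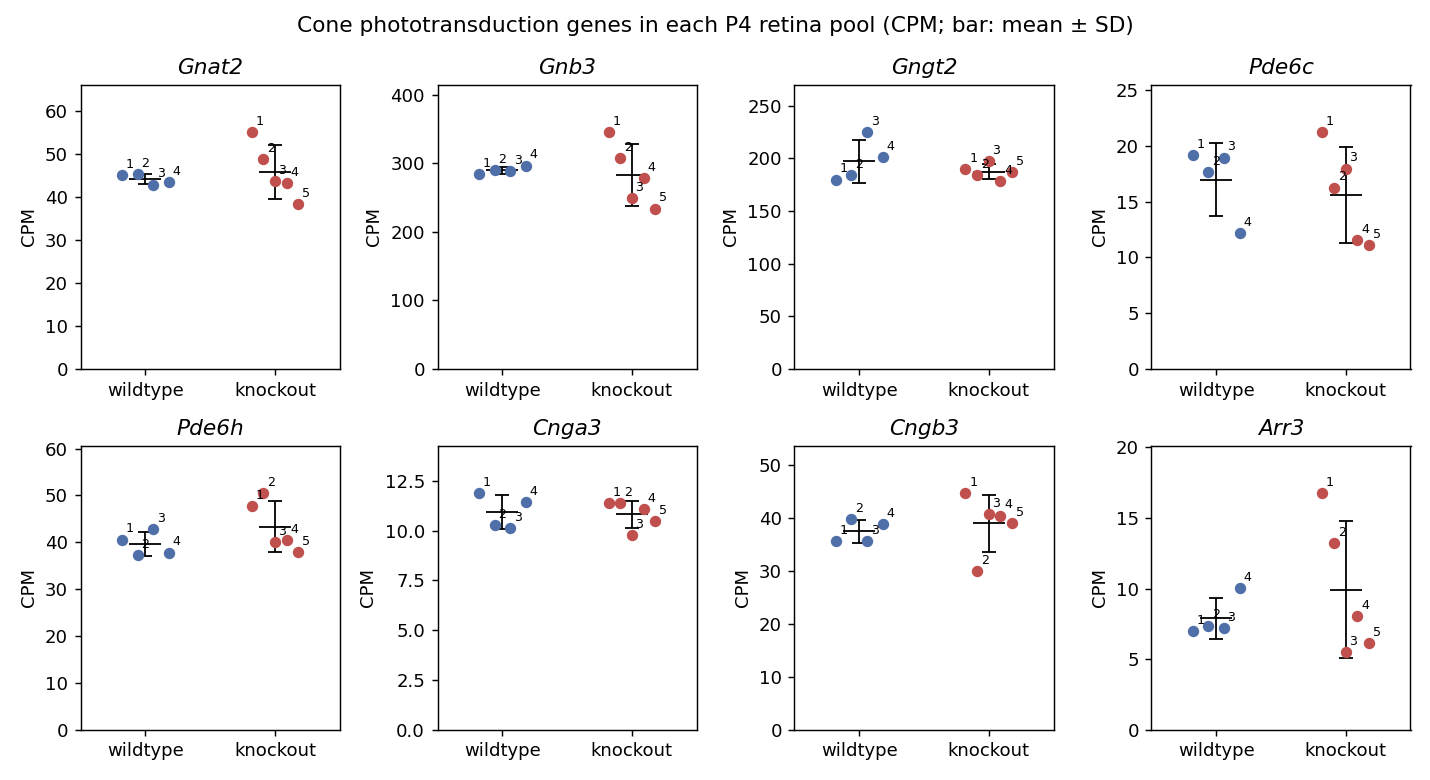
CPM of the 8 cone genes in each pool, numbered by pool, with the mean and SD of each genotype. The genotypes overlap in every panel, and for Gnat2, Gnb3, Pde6h and Arr3 the 2 highest points are knockout pools 1 and 2.

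For 4 of the 8 members knockout pools 1 and 2 were the 2 highest of the 9 pools. Gnat2, Gnb3 and Arr3 were highest in knockout pool 1 and second in knockout pool 2, and for Pde6h these places were exchanged. Gngt2, Pde6c, Cnga3 and Cngb3 did not share this pattern. Knockout pool 1 held the highest level of 5 of the 8 members and knockout pool 5 the lowest of 3. Averaged over the members, log2 CPM stood 0.31 and 0.11 above the mean of the 9 pools in knockout pools 1 and 2, between −0.21 and −0.08 in knockout pools 3 to 5, and between −0.03 and 0.01 in the wildtype pools. Arr3 weighed heavily in these means: without it they were 0.21 and 0.03 in knockout pools 1 and 2, −0.17 to −0.02 in the remaining knockout pools, and −0.05 to 0.04 in wildtype. Lens RNA was highest in the same pair of pools, and its part in these levels was not tested.

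Without knockout pools 1 and 2, 0 of 8 members passed the test, where 2.27% of all genes did. Then 1 member was positive, and the median was −0.08 over the members and −0.01 over all genes. Arr3 then measured −0.27, Gnat2 −0.09 and Pde6h −0.01, each a change of sign, Pde6c −0.33 and Gnb3 −0.20 (edgeR adjusted p 0.134 to 0.967 over these genes). Cngb3 at 0.09 was the positive member.

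**Figure D3:**
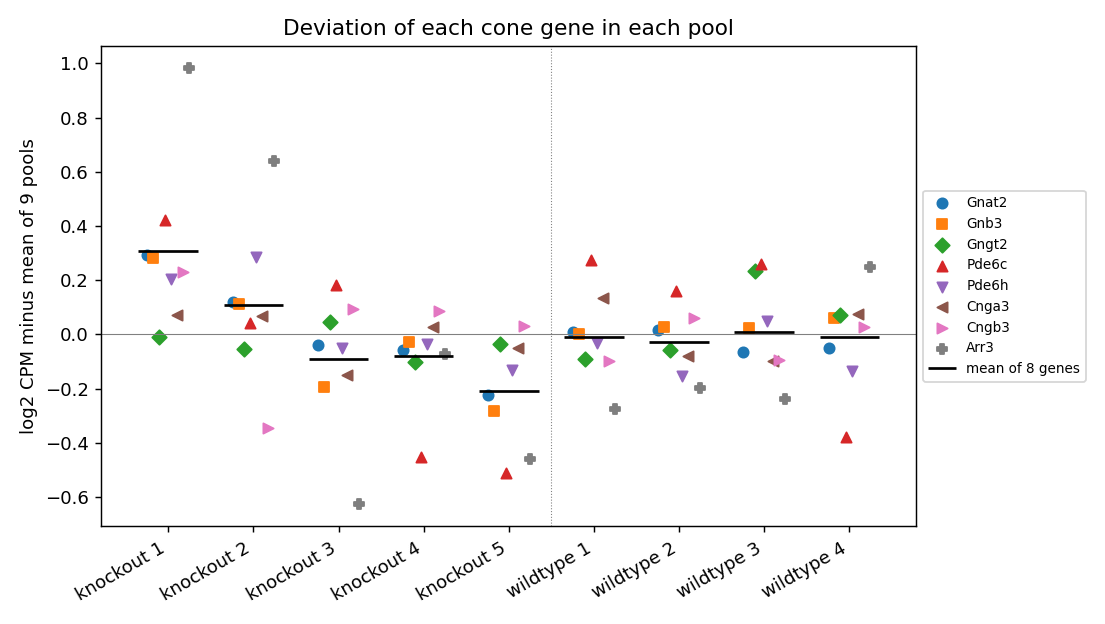
Deviation of log2 CPM from the mean of the 9 pools for each cone gene (symbols) in each pool, with a bar at the mean of the 8 genes. The bar is at 0.31 in knockout pool 1 and −0.21 in knockout pool 5, while in the wildtype pools it stays between −0.03 and 0.01.

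Among 15737 other genes with a mean of at least 1 CPM, those whose z-scored log2 CPM lay nearest to the members' mean profile over the 9 pools were Fam19a3, Adamts4, Mlst8, Cep85 and Izumo4, at root mean square distances of 0.283 to 0.361. Gnat2 and Gnb3 lay at 0.332 and 0.337 from that profile and Cngb3 at 1.28, so the profile was mainly that of Gnat2, Gnb3 and Arr3 (0.492).

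Most rod counterparts of the same cascade were higher in knockout. Of 9 rod genes, 8 were higher in knockout and 0 lower, where 1.34% of all genes tested were higher, and their median log2 fold change was 0.58. The rod channel subunit Cnga1 rose by 0.82 on the log2 scale, the rod transducin gamma subunit Gngt1 by 0.73, the channel subunit Cngb1 by 0.67, and the rod phosphodiesterase subunits Pde6a, Pde6b and Pde6g by 0.62, 0.58 and 0.43 (edgeR adjusted p 0.00245 to 0.0209). Rod arrestin Sag (0.50) and the beta subunit Gnb1 (0.20), which is expressed far beyond rods, were higher, while rod alpha transducin Gnat1 measured 0.42 (adjusted p = 0.298), and 0.06 without knockout pools 1 and 2. Cycling progenitor and red blood cell genes were lower in the same pools (values above), and their part in the rod values was not tested. With no filter on low counts 4 of 9 were higher, against 0.441% of all genes. Without knockout pools 1 and 2, 5 of 9 were higher, with a median of 0.40, against 0.627% of all genes. Without knockout pool 2, wildtype pool 1 or wildtype pool 4 alone, 5 of 9 were higher. With knockout pools 1 and 2 both left out, Pde6a, Gnb1 and Sag lost their calls (edgeR adjusted p 0.111, 0.0952 and 0.0596). Sag also lost its call without any of 5 single pools (knockout pool 2 or any wildtype pool), Pde6a without 3 (knockout pool 2, wildtype pool 1 or 3), Gnb1 without 3 (knockout pool 2, wildtype pool 1 or 4) and Pde6g without wildtype pool 4.

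**Figure D4:**
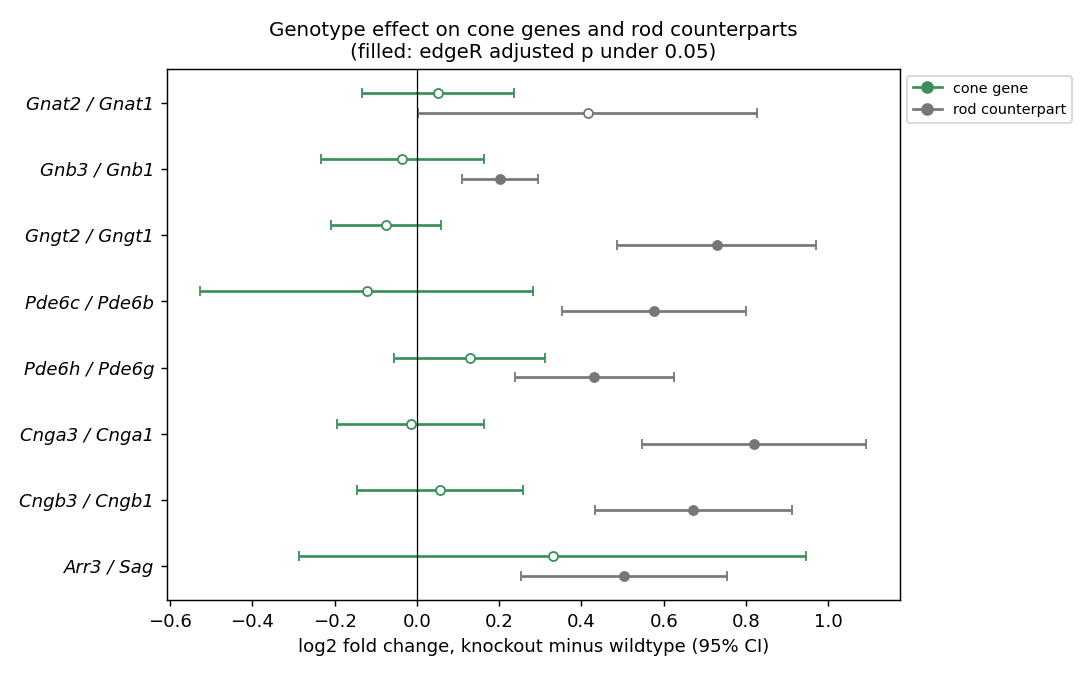
Log2 fold change, knockout minus wildtype, with its 95% confidence interval for each cone gene and its rod counterpart; filled points passed edgeR's test. The intervals of all 8 cone genes include 0, and 7 of the 8 rod counterparts drawn are filled.

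The difference between a cone gene and its counterpart was tested as the log2 ratio of their counts in each pool, which library scaling does not touch, with an exact permutation test (two-sided) of all 126 splits of the pools. There were 8 ratios, their p-values are not adjusted, and 6 had a p under 0.05, all lower in knockout. The smallest p that 5 against 4 pools can give is 0.00794. The rod values were known when these ratios were chosen.

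For the transducin gamma subunits, Gngt2/Gngt1 was 0.90, 1.06, 1.26, 1.29 and 1.53 in the knockout pools and 1.80, 1.75, 2.38 and 2.04 in the wildtype pools. No pool of one genotype entered the range of the other, and the mean was 0.79 lower in knockout (exact permutation p = 0.00794). For the channel, Cnga3/Cnga1 was −2.46, −2.53, −2.35, −2.23 and −1.93 in knockout and −1.39, −1.75, −1.53 and −1.26 in wildtype, a difference of −0.82 with ranges apart (exact permutation p = 0.0159). Cngb3/Cngb1 also had ranges apart, at −2.79 to −1.76 in knockout and −1.73 to −1.45 in wildtype (difference −0.61; exact permutation p = 0.0159). That p rose to 0.0536 to 0.0714 without wildtype pool 2, 3 or 4.

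The phosphodiesterase ratios changed their calls with the measure or with single pools. Pde6h/Pde6g, the inhibitory subunits, lay at −1.96 to −1.82 in knockout and −1.77 to −1.46 in wildtype (difference −0.30; exact permutation p = 0.00794), but in gene-summed TPM the difference was −0.21 (exact permutation p = 0.0952). Pde6c/Pde6b, the catalytic subunits, had overlapping ranges of −4.58 to −3.95 and −4.001 to −3.29 (difference −0.71; exact permutation p = 0.0238), and its p was 0.0536 to 0.0571 without any of 6 single pools (knockout pools 1, 2, 4 and 5, wildtype pools 1 and 3).

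Gnb3/Gnb1 measured −2.004 ± 0.17 in knockout and −1.75 ± 0.03 in wildtype (SD, n = 5 and 4; exact permutation p = 0.0317), a call lost without any single pool but knockout pool 1 (p up to 0.0893). The remaining ratios missed the threshold. Gnat2/Gnat1 was 0.33 lower in knockout (exact permutation p = 0.119) and Arr3/Sag 0.27 lower (exact permutation p = 0.333), with overlapping ranges. Without knockout pools 1 and 2 the Gnat2/Gnat1 difference was −0.15 (exact permutation p = 0.371). There, where 3 against 4 pools cannot go below 0.0286, 5 ratios stood at that limit. They were Gngt2/Gngt1 (−0.63), Cnga3/Cnga1 (−0.68), Cngb3/Cngb1 (−0.42), Gnb3/Gnb1 (−0.35) and Arr3/Sag (−0.56), while Pde6c/Pde6b and Pde6h/Pde6g had an exact permutation p of 0.0857 and 0.0571.

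**Figure D5:**
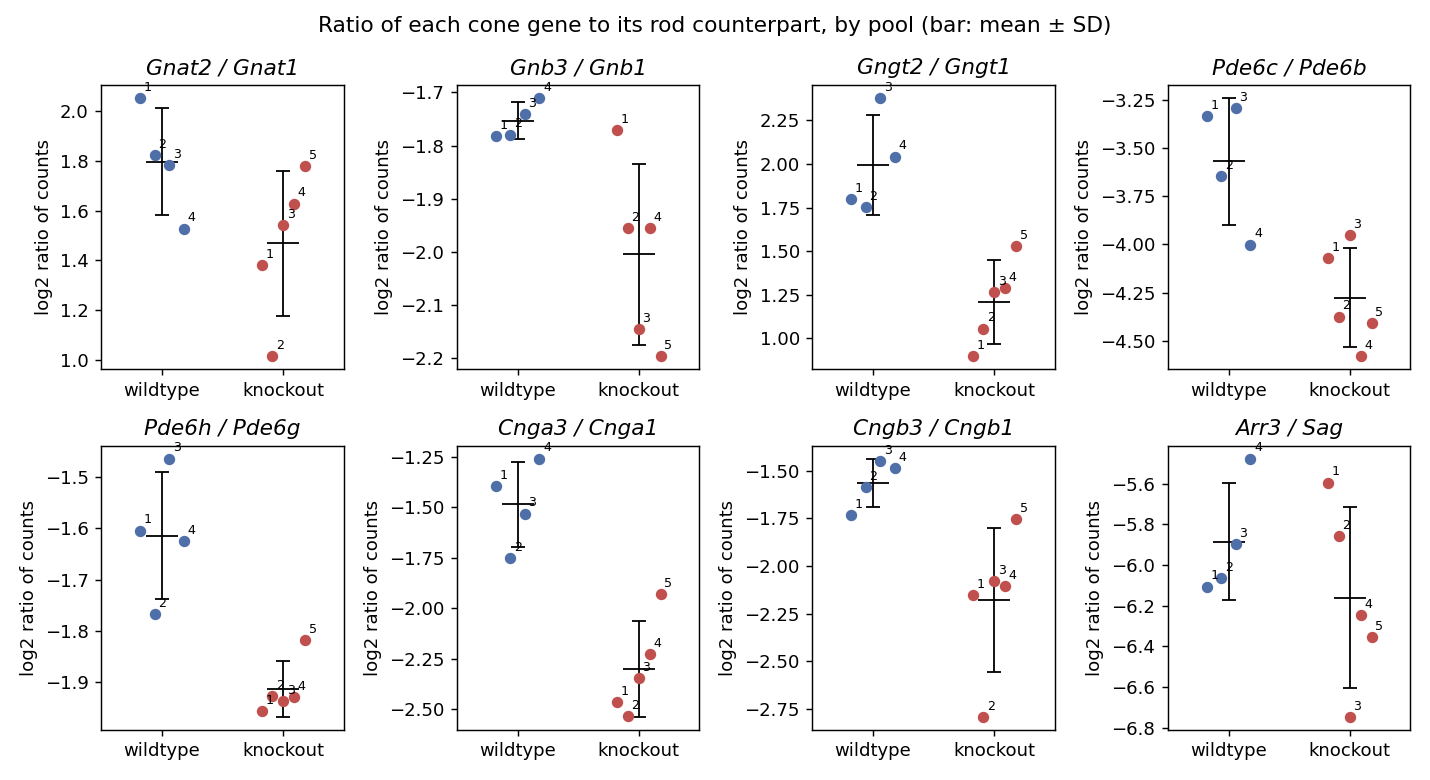
Log2 ratio of the counts of each cone gene to those of its rod counterpart in each pool, numbered by pool, with the mean and SD of each genotype. For Gngt2/Gngt1, Pde6h/Pde6g, Cnga3/Cnga1 and Cngb3/Cngb1 all knockout pools lie below all wildtype pools.

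Per transcript length, the cone form prevailed for the alpha and gamma subunits of transducin and the rod form for the enzyme, channel and arrestin. Gnat2 made up 83.7 ± 1.3% of the summed TPM of Gnat1 and Gnat2 in wildtype and 80.3 ± 2.6% in knockout (SD, n = 4 and 5). Gngt2 made up 92.2 ± 1.4% of its pair in wildtype and 87.4 ± 1.8% in knockout. Cnga3 held 24.4 ± 2.9% of the pair with Cnga1 in wildtype and 14.8 ± 3.3% in knockout, and Cngb3 11.3 ± 0.6% and 8.44 ± 1.8% of the pair with Cngb1. Gnb3 made up 27.8 ± 0.7% of its pair with Gnb1 in wildtype and 23.7 ± 2.2% in knockout. Pde6c was at most 10.01% and Arr3 at most 3.95% of their pairs in any pool.

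Of the cone opsins, short-wave Opn1sw was not called different, at 154 ± 16 CPM in knockout and 163 ± 17 CPM in wildtype (SD, n = 5 and 4; log2 fold change −0.08; edgeR adjusted p = 0.680). Opn1mw, the middle-wave opsin that starts later, was too low to test, with 4, 17, 4, 0 and 0 counts in the knockout pools and 0 in each wildtype pool, where 3 counts would be 0.0348 to 0.0409 CPM. The TPM table lists it above 0 in every pool, at 0.154 ± 0.111 in knockout and 0.0994 ± 0.0409 in wildtype (SD, n = 5 and 4), with overlapping ranges.

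Of 19 other genes of the cascade, most shared by rods and cones, 7 were higher in knockout and 0 lower, where 1.34% of all genes tested were higher and 2.25% lower. Their median log2 fold change was 0.30, with 18 positive. The count was 3 of 19 with no filter on low counts, 3 or 4 without any single pool but knockout pool 5, and 10 without that pool. The 7 included the guanylyl cyclase Gucy2f (0.89), the opsin kinase Grk1 (0.68), the RGS9 anchor Rgs9bp (0.65), the potassium channel subunit Kcnv2 (0.47), and phosducin Pdc (0.40). The calls of Rgs9bp, Kcnv2 and Pdc held without any single pool and without knockout pools 1 and 2, which left 3 of 19 higher. Those of Gucy2f and Grk1 were lost without any single pool but knockout pool 5 (adjusted p up to 0.114 and 0.126), and without knockout pools 1 and 2 these genes measured 0.65 and 0.39 (adjusted p 0.183 and 0.173).

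Of 14 transcription factors that act in cone and photoreceptor fate, Neurod1 was higher (log2 fold change 0.22; edgeR adjusted p = 0.0421) and Tbx2 lower (−0.18; edgeR adjusted p = 0.0489), and the median was 0.04. Among all genes tested, 1.34% were higher and 2.25% lower. Neither factor kept its call without knockout pools 1 and 2 (edgeR adjusted p 0.117 and 0.198). The call of Tbx2 was lost without any single pool but one, and that of Neurod1 without any of 7. Thrb, the thyroid hormone receptor that directs middle-wave cones, measured 0.18 (adjusted p = 0.202), and its partner Rxrg −0.16 (adjusted p = 0.230).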

How the data were processed

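Neural retina pools of 2 genotypes were profiled by RNA-seq with paired reads of 150 bases. The authors deposited whole-number counts per gene symbol, whose totals exceed the stated 42.7 M reads per sample; no source used here says which program wrote that table. The deposited TPM came from Trimmomatic 0.39 and kallisto 0.46.1 on GRCm38, per the submitters' processing notes. Since the deposited columns sum to 953963 to 1083977, they are not plain TPM as the authors' program writes them, and they were handled as a score per transcript. The authors' deposited table from sleuth 0.30.8 gives p-values and q-values, and an effect on the natural log scale that is positive where wildtype is higher, converted here to log2.

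Counts were tested with edgeR 4.0.16 in R 4.3.3 (filterByExpr, TMM, quasi-likelihood F test, two-sided, Benjamini-Hochberg over 21150 genes, threshold 0.05). Genes reaching 1 TPM in 4 or more pools entered limma 3.58.1 with a mean-variance trend, on log2(TPM + 0.5), where changes of low genes come out too small. Transcript copies were searched with BLAST 2.17.0. DESeq2 1.42.0, other scalings, no filter, a robust fit, single pools left out, knockout pools 1 and 2 left out, and a replicate block were tried. The procedures were tested on simulated data. Members and lists were chosen with earlier results of these data known. Named genes were Opn4, the members, their counterparts, the cone opsins, at most 6 called genes per list, and the 5 genes nearest to the members' profile; Thrb, Rxrg, Cryaa, Rpe65 and Xist were named outside that rule, and 1 gene that it names is not reported here. The 188 TPM rows whose symbol is only digits were left out.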

Additional observations from a re-analysis of the deposited data

Results flagged for a closer look

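A single pool stood far from the rest of its genotype in 3 of 48 groups of values examined, and such a gap arises by chance in about 1 in 20 groups. Arr3 measured 10.1 CPM (10.0568) in wildtype pool 4 against 7.00 to 7.37 CPM in the other wildtype pools. The Pde6h/Pde6g log2 ratio of counts was −1.82 (−1.8185) in knockout pool 5 against −1.96 to −1.93 in the other knockout pools. Pde6c measured 8.37 TPM (8.3713) in wildtype pool 4 against 12.7 to 13.3 TPM in the other wildtype pools.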

How the results depend on the processing

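Under every fit tried on the counts, the gene-summed TPM and the authors' deposited table, 0 of the 8 cone genes were called. Their small fold changes often changed sign. Without knockout pools 1 and 2 the edgeR values were −0.27 for Arr3, −0.086 for Gnat2 and −0.010 for Pde6h, and the TPM values −0.27 for Arr3, 0.0053 for Cnga3 and −0.070 for Gnat2. The authors' deposited table gave −0.078 for Arr3, 0.0069 for Cnga3 and 0.0074 for Pde6c. With the replicate block Gnb3 was 0.012 in counts and 0.019 in TPM, and on the same 8 pools with no replicate block (added after seeing the data) 0.022. With single pools left out, the edgeR values ran from −0.050 to 0.025 for Cnga3, −0.023 to 0.11 for Gnat2 and −0.12 to 0.022 for Gnb3. The TPM values ran from −0.038 to 0.34 for Arr3, −0.0034 to 0.13 for Cngb3, −0.024 to 0.099 for Gnat2, −0.12 to 0.019 for Gnb3 and −0.12 to 0.0074 for Gngt2.

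Of all genes, 760 were called in the main test, 1487 by DESeq2, 486 without knockout pools 1 and 2 and 524 to 859 with single pools left out. In gene-summed TPM 330 were called, 194 with no filter, 154 without knockout pools 1 and 2 and 160 to 364 with single pools left out. Of the 8 ratios, 6 passed, 3 to 5 with single pools left out (3 without wildtype pool 3), and 0 with the replicate block, where 4 pairs cannot go below an exact p of 0.125. No source used here pairs the pools by replicate number. Deviations of same-numbered pools correlated at −0.031 to 0.006 across genes, a measure that cannot show pairing that moves few genes. With the block 915 genes were called, 859 on the same pools without it. The lowest count of a member in a pool was 356 (Arr3); what sets the width of the intervals was not tested. Why these values moved was not tested.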
